A study of Homo sapiens with 12 samples.

Results

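Untreated UKE1 cells were compared with untreated HEL cells, both established human lines labelled as erythroleukemia cells and both carrying the JAK2V617F mutation, which keeps the kinase JAK2 active without cytokine. The comparison used every array labelled untreated in either line, 3 of UKE1 and 3 of HEL, 6 of the 12 arrays of the study. The other 6 arrays held the same lines cultured with 250 nM ITF2357 (givinostat), an inhibitor of histone deacetylases. They entered the estimate of the spread and the check of each difference in drug-treated cells. Means over all 12 arrays also chose the row of a gene with several rows and the genes at or above the median level. Exponentially growing cells of all 4 groups were cultured for 6 h before RNA was taken.

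The medium differed between the lines. Both grew in RPMI 1640 with glutamine, gentamycin and 10% fetal calf serum. UKE1 medium also held 10% horse serum, 10 µM hydrocortisone (a glucocorticoid) and 25 mM HEPES buffer, which HEL medium did not. Each kind of cell is 1 line, so every difference below is one between these lines in their own media, and line and medium cannot be told apart. The series calls the arrays of a group independent triplicates without saying how the cultures were kept apart, so a p-value here weighs a difference against the spread of these arrays, which may be technical.

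Erythroid cells, platelet-forming megakaryocytes, mast cells and basophils arise from progenitors that use the transcription factor GATA2, and GATA1 with KLF1 and NFE2 then drives the red cell and platelet programmes. Monocytes and granulocytes arise under SPI1 (PU.1) and CEBPA, and the surface protein CD34 marks stem and early progenitor cells, which lose it as they mature. JAK2 relays signals of the erythropoietin, interleukin-3 and granulocyte factor receptors to the STAT proteins, and the mutated kinase drives myeloproliferative neoplasms.

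RNA was measured on Affymetrix Gene 1.0 ST arrays, and levels are the deposited RMA values on a log2 scale, on which a difference of 1 is a 2-fold difference. Across 18417 genes the level was below 4.22 in 10% of values of the 6 arrays and above 9.76 in another 10%, with a median of 7. No detection flag was used, so no gene was called absent, and a fold difference against a level near the lower end is a value between a signal and the array's background. The 6 arrays correlated at r = 0.994 to 0.995 within a line and at 0.935 to 0.937 between lines over all rows. A gene was called different when limma gave it an adjusted p (Benjamini-Hochberg over the 18417 genes) below 0.05, and differences are UKE1 minus HEL, with standard errors (SE) of the fit.

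By that threshold 12471 genes differed, 67.7% of those tested, with 6132 higher in UKE1 (33.3%) and 6339 higher in HEL (34.4%). Any count of called members below is to be set beside these shares of 33.3% and 34.4%. With so many calls, gene groups are described below by members that also differed at least 2-fold. These were 1351 genes higher in UKE1 (7.34% of genes tested) and 1527 higher in HEL (8.29%), and for all 2878 of them the 3 arrays of one line lay above the 3 arrays of the other. Non-overlap alone was common, at 69.4% of genes. The difference reached 16-fold for 84 genes higher in UKE1 and for 92 higher in HEL. Between the drug-treated arrays of the lines 68% of genes tested differed, among them 2803 of the 2878 in the same direction and 23 in the opposite one. In bulk RNA, fewer cells of a type and less RNA per cell cannot be told apart.

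The largest difference in favour of HEL was in CRIPTO, a co-receptor for the growth factor Nodal. Its level was 10.85, 10.74 and 10.79 on the HEL arrays and 2.78, 2.29 and 2.57 on the UKE1 arrays, a difference of -8.25 ± 0.17 (SE). The embryonic globin gene HBE1 followed, at 12.94, 12.91 and 12.99 in HEL and 5.29, 5.19 and 5.09 in UKE1 (-7.76 ± 0.07). In both genes the UKE1 arrays sat in the lower part of the range of all genes and the HEL arrays in the top 10%. The other genes among the 15 largest were CA1 (-7.31), carbonic anhydrase of red cells, HDC (-6.44), which makes histamine, the trafficking adaptor TOM1L1 (-6.43), CYP11A1 (-6.38), which opens steroid hormone synthesis, the pseudokinase TRIB2 (-6.31), the blood group gene RHD (-6.21) and the neuropeptide Y receptor NPY1R (-6.03). The remaining members were the proteasome assembly chaperone PSMD5 (-6.00), the mitochondrial co-chaperone DNAJC15 (-5.96), the ubiquitin proteases USP44 (-5.87) and USP15 (-5.80), the matrix protein FREM1 (-5.72) and the carboxypeptidase CPVL (-5.59).

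The largest difference in favour of UKE1 was in CRISP3, a secreted protein of neutrophil granules. It was read at 12.73, 12.81 and 12.84 on the UKE1 arrays and at 5.15, 5.18 and 4.98 on the HEL arrays (7.69 ± 0.07). VNN1, a membrane-bound pantetheinase, was at 11.35, 11.50 and 11.46 in UKE1 and 3.94, 3.98 and 3.87 in HEL (7.51 ± 0.10). For both genes the lines were separated by more than 7 log2 units with no overlap. Next came TRPS1 (7.26), a zinc finger repressor that binds GATA sites, the lectin receptor CLEC9A (7.04), the amyloid precursor gene APP (6.99), GTSF1 (6.88), the chromatin organiser SATB1 (6.41), PLAC8 (6.32), the aminotransferase AADAT (6.31) and CD34 (6.31). CLEC2A (6.23), the metalloprotease ADAM28 (6.15), the nucleotide exchange factor DOCK10 (5.91) and the small nucleolar RNA genes SNORD113-4 (6.09) and SNORD113-3 (5.89) completed the 15. These 30 genes were taken from those past the threshold in limma whose arrays did not overlap between the lines. Both properties therefore hold by choice.

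Erythroid transcription factors were higher in HEL. GATA1 was at 10.23, 10.28 and 10.32 in HEL and at 7.45, 7.41 and 7.52 in UKE1, a difference of -2.81 ± 0.08 (limma adjusted p = 4.44e-13). KLF1 was at 8.55, 8.67 and 8.75 against 6.80, 6.78 and 6.93 (-1.82 ± 0.08), and NFE2 at 10.61, 10.46 and 10.50 against 8.54, 8.50 and 8.43 (-2.03 ± 0.07). All HEL arrays lay above all UKE1 arrays in these 3 genes. GATA2, shared with mast cells and stem cells, was 10.81, 10.78 and 10.83 in HEL and 9.46, 9.54 and 9.56 in UKE1 (-1.29 ± 0.06). TAL1, a partner of GATA1 in erythroid and megakaryocyte cells, differed less (-0.47 ± 0.08, from 10.09, 10.19 and 10.28 in HEL to 9.78, 9.74 and 9.62 in UKE1), again without overlap. RUNX1 was also higher in HEL (10.71, 10.75 and 10.86 against 9.86, 9.84 and 9.98; -0.88 ± 0.07). EPOR, the erythropoietin receptor, was at 7.77, 7.84 and 7.88 in HEL and at 6.44, 6.18 and 6.25 in UKE1 (-1.55 ± 0.08), which put it below the median of all genes in UKE1.

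The genes of the red cell itself mostly followed the same direction. Of 27 measured genes of the red cell membrane and blood groups, 13 were at least 2-fold higher in HEL (48.1%) and 2 in UKE1. EPB42 (protein 4.2, -4.29 ± 0.07), ANK1 (ankyrin, -3.70 ± 0.08) and DMTN (dematin, -3.63 ± 0.06), which tie the membrane to its skeleton, were among the 13, with the blood group genes ART4 (-4.20), KEL (-3.69) and RHCE (-3.47). RHD and RHCE are near-identical neighbours, so the array may not separate them. The 2 genes higher in UKE1 were RHAG, the Rh-associated membrane protein (10.95, 10.93 and 10.91 in HEL, 12.25, 12.26 and 12.23 in UKE1; 1.32 ± 0.06), and CA2, a second carbonic anhydrase (7.63, 7.45 and 7.52 against 9.56, 9.42 and 9.36; 1.91 ± 0.08). Both were named because they ran against the rest.

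Of 25 genes of haem synthesis and iron handling, 23 were called higher in HEL, 10 of them at least 2-fold (40%), and 2 were called higher in UKE1. The shares of all genes called were 34.4% for HEL and 33.3% for UKE1. ALAS2, the first enzyme of erythroid haem synthesis, was at 9.57, 9.41 and 9.46 in HEL and at 5.96, 5.97 and 5.94 in UKE1 (-3.52 ± 0.08). The haem-degrading enzyme HMOX1 (-3.61), transferrin receptor 2 (TFR2, -2.83), the iron exporter SLC40A1 (ferroportin, -2.70) and biliverdin reductase A (BLVRA, -2.56) differed by a like amount or less. TFRC, the transferrin receptor of dividing cells, was high in both lines (12.26, 12.31 and 12.18 in HEL, 11.52, 11.40 and 11.45 in UKE1; -0.79 ± 0.07). Of 7 measured globin list genes 3 were at least 2-fold higher in HEL, namely HBE1, HBB (-1.42 ± 0.13) and HBZ (7.96 ± 0.09 SD against 6.95 ± 0.07, n = 3 each), and globin genes share sequence. AHSP, the chaperone of alpha globin in maturing erythroblasts, read between 3.69 and 4.07 on all 6 arrays, below the 10th percentile of all values in both lines. In UKE1 the defining erythroid genes KLF1, ALAS2 and EPOR lay below the median of all genes while GATA1 and TFRC lay above it.

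The promoters of 3 of these genes, the factor KLF1, the membrane gene EPB42 and the haem gene ALAS2, are shown because their genes differed in the same direction as GATA1. Each is the 250 bases before the RefSeq gene start on GRCh38.p14, written 5′ to 3′ on the gene's own strand, and capitals mark GATA words (AGATAA, in which the first base may also be T and the last may also be G, on either strand). KLF1 lies on the minus strand, at chr19:12887202-12887451, and held 2 words. EPB42 lies at chr15:43221019-43221268, minus strand, and held 2. ALAS2 lies at chrX:55030978-55031227, minus strand, and held 1.
KLF1: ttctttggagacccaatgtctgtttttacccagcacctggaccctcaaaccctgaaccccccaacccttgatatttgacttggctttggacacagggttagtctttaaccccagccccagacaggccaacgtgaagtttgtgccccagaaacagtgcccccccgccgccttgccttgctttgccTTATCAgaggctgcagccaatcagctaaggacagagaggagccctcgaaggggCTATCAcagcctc
EPB42: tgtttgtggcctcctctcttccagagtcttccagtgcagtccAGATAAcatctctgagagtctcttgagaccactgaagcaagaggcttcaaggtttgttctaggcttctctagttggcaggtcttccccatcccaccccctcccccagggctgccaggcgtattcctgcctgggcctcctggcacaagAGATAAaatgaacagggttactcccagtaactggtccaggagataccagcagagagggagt
ALAS2: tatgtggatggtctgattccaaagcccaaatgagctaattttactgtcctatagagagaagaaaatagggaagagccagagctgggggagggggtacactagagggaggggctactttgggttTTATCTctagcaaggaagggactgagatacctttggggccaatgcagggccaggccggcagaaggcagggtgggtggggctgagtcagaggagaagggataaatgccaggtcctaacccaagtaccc
A GATA word was present in 8 of the 16 erythroid-list genes (50%) that were at least 2-fold higher in HEL and had a promoter in the table, of 26 such genes. It was present in 10 of 27 other erythroid-list genes (37%) and in 26.2% of 27305 genes with a promoter. A match is a description of letters and shows no binding.

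Megakaryocyte and platelet genes were split between the lines. Of 37 measured, 13 were at least 2-fold higher in HEL (35.1%) and 6 in UKE1 (16.2%). Higher in HEL were the receptors of collagen, fibrinogen and von Willebrand factor, ITGA2 (-3.76 ± 0.08), ITGB3 (-1.56 ± 0.07) and GP1BA (10.04, 10.00 and 10.00 against 7.99, 7.96 and 7.92; -2.06 ± 0.06), and THBS1 (thrombospondin, -2.13 ± 0.07). ITGA2B, the partner of ITGB3 and an early marker of the lineage, was at 12.04, 12.11 and 12.09 in HEL and 10.79, 10.73 and 10.68 in UKE1 (-1.35 ± 0.06), high in both lines and without overlap. Higher in UKE1 were genes of granule and secreted proteins, F13A1 (factor XIII A, 4.31, 4.56 and 4.40 in HEL, 9.89, 9.71 and 9.81 in UKE1; 5.38 ± 0.08), PPBP (4.04 ± 0.09), MMRN1 (multimerin, 3.08 ± 0.08) and VWF (2.58 ± 0.08), and the platelet lectin receptor CLEC1B (3.52 ± 0.07). The remaining markers GP9 (-0.87) and PF4 (-0.51) were called higher in HEL by less than 2-fold.

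Mast cell and basophil genes leaned to HEL, with 6 of 13 at least 2-fold higher (46.2%) and 0 in UKE1. HDC was at 12.25, 12.22 and 12.14 in HEL and 5.84, 5.71 and 5.75 in UKE1. FCER1A, the IgE-binding chain of the high-affinity receptor, was at 11.51, 11.67 and 11.55 against 6.48, 6.72 and 6.68 (-4.95 ± 0.11), and MS4A3 was at 11.13, 11.09 and 11.08 against 6.94, 7.19 and 7.04 (-4.04 ± 0.08). These genes lay in the upper 10% of values in HEL. Other mast cell genes did not move with them. KIT, the stem cell factor receptor, was level, at 11.10, 11.32 and 11.17 in HEL and 11.29, 11.28 and 11.29 in UKE1 (0.09 ± 0.07, adjusted p = 0.279 in limma; 0.27 and past the threshold after quantile normalization). The protease gene CPA3 did not pass the threshold either (-0.07 ± 0.08, adjusted p = 0.481 in limma).

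Stem and progenitor genes were higher in UKE1 in 23 of 29 cases, 15 of them at least 2-fold (51.7%), against 4 at least 2-fold higher in HEL. CD34 was at 12.20, 12.07 and 12.10 in UKE1 and at 5.84, 5.76 and 5.82 in HEL (6.31 ± 0.06, adjusted p = 2.8e-17 in limma). The growth factor receptor FLT3 was at 7.88, 7.80 and 7.74 against 4.17, 4.26 and 4.16 in HEL (3.61 ± 0.06). UKE1 arrays lay above all HEL arrays for both genes. CD200 (5.06), the protease inhibitor SPINK2 (4.06), the laminin receptor ITGA6 (3.87) and BAALC (3.19) ran the same way. In the opposite direction THY1 (CD90, -2.87 ± 0.08) and the drug pump ABCG2 (-1.96 ± 0.09) were higher in HEL. CD38, which rises as progenitors leave the stem cell stage, was low in both lines and higher in UKE1 (4.50, 4.61 and 4.45 in HEL, 5.45, 5.73 and 5.73 in UKE1; 1.12 ± 0.10).

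Transcription factors of progenitors divided between the lines too. Of 47 haematopoietic factors 8 were at least 2-fold higher in UKE1 and 9 in HEL. ZFPM2, a cofactor of GATA proteins (5.43 ± 0.06), BCL11A, which silences fetal globin (3.73 ± 0.18), and the ETS factor ERG (3.34 ± 0.09) led those of UKE1. MECOM (EVI1) was at 8.24, 8.25 and 8.07 in HEL and 4.65, 4.39 and 4.40 in UKE1 (-3.71 ± 0.09), and LEF1 was lower in UKE1 by a like amount (-3.30 ± 0.12). MYB, needed by progenitors of every lineage, was high in both lines, at 11.23, 11.29 and 11.20 in HEL and 11.42, 11.34 and 11.38 in UKE1. Its difference of 0.14 ± 0.06 missed the threshold (adjusted p = 0.0506 in limma) and passed it with quantile normalization (0.32) and with median centring (0.19). Of 15 measured HOX and partner genes 6 were at least 2-fold higher in HEL (40%), MEIS2 and 5 genes of the HOXB cluster, led by HOXB9 (-3.69 ± 0.08). HOXB7 was at 6.55, 6.63 and 6.56 in HEL and 5.17, 4.88 and 5.02 in UKE1. MEIS1, the partner of HOX proteins in stem cells, went the other way, from 9.31, 9.26 and 9.21 in HEL to 11.14, 11.12 and 11.14 in UKE1 (1.87 ± 0.05).

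Monocyte and macrophage genes were higher in UKE1. Of 32 measured, 15 were at least 2-fold higher there (46.9%) and 2 in HEL. CSF1R, the receptor of macrophage colony-stimulating factor, was at 10.22, 10.18 and 10.25 in UKE1 and at 5.67, 5.80 and 5.82 in HEL (4.45 ± 0.07). The beta-glucan receptor CLEC7A was at 8.04, 7.90 and 7.80 against 2.76, 2.76 and 2.80 (5.14 ± 0.09). Versican (VCAN, 3.87), the lectin CLEC4D (4.22), the mannose receptor MRC1 (3.30) and the integrin ITGAM (2.18) were also in this group. CD14, which defines classical monocytes, was low and level (5.81 ± 0.21 SD in HEL, 5.72 ± 0.07 in UKE1, n = 3 each; adjusted p = 0.438 in limma). The 2 genes that were higher in HEL were the Fc receptor FCGR2A (-2.44) and TLR4 (-2.04).

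Factors of these lineages were also higher in UKE1. SPI1 was at 8.61, 8.59 and 8.65 in HEL and 8.93, 9.04 and 9.10 in UKE1 (0.40 ± 0.07), and CEBPA was at 6.37, 6.72 and 6.54 against 7.94, 7.93 and 7.88 (1.37 ± 0.09). Of 25 granule genes 7 were at least 2-fold higher in UKE1 (28%) and 2 in HEL. MPO, myeloperoxidase of neutrophil granules, was at 7.17, 6.94 and 7.04 in UKE1 and 5.56, 5.46 and 5.55 in HEL (1.53 ± 0.09), near the median of all genes in UKE1. RNASE2 (3.19) and S100A8 (2.54) ran with it, and LCN2 (-1.83) and PRG2 (-1.71), the major basic protein of eosinophils, were the 2 that were higher in HEL.

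**Figure D1:**
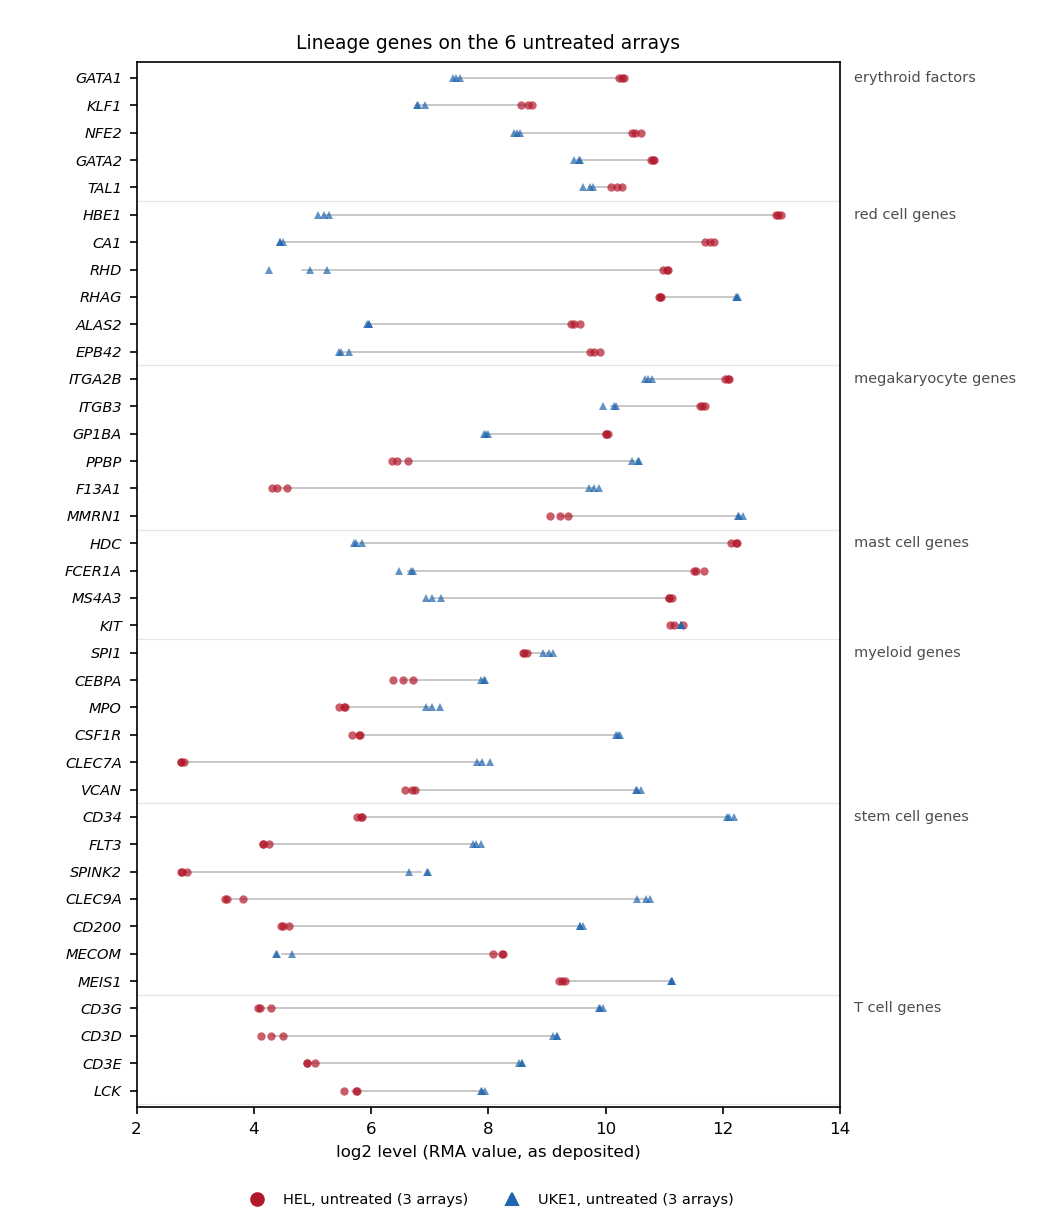
Log2 level (horizontal axis) of 38 lineage genes on each of the 3 untreated HEL arrays (circles) and 3 untreated UKE1 arrays (triangles), with a grey line between the group means. Red cell and mast cell genes such as HBE1, CA1, HDC and FCER1A lie to the right in HEL, CD34, CLEC9A, CSF1R and CD3G lie to the right in UKE1, and the KIT arrays of the lines overlap.

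The genes CD3G, CD3D and CD3E of the T cell receptor complex were higher in UKE1 than in HEL. CD3G was at 9.91, 9.97 and 9.90 in UKE1 and 4.11, 4.29 and 4.07 in HEL (5.77 ± 0.07), with CD3D (4.84 ± 0.13) and CD3E (3.61 ± 0.07) beside it. The kinase LCK, which acts on CD3 in T cells, was also higher in UKE1 (2.23 ± 0.08). Of 17 T cell genes measured, 10 were called higher in UKE1 and 4 higher in HEL. At least 2-fold higher in UKE1 were 5 (29.4%), these 4 and CD6 (1.94 ± 0.09), and CD8B was at least 2-fold higher in HEL (-2.56 ± 0.13). CD247, a further gene of the complex, was measured and was not among the genes called at least 2-fold different in either direction. CD3D, CD3E and CD3G are neighbours on chromosome 11, next to MPZL2, and all 4 genes were at least 2-fold higher in UKE1. B cell genes (16 measured) had 3 at least 2-fold higher in UKE1 and 2 in HEL, the 3 being CD22 (2.36), CD79B (1.61) and CD79A (1.50). NK cell genes (17 measured) had 3 and 2, with KLRF1 (3.31) and NCAM1 (CD56, 3.10) higher in UKE1 and the receptors NCR3 (-2.29) and CD244 (-2.11) higher in HEL.

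Markers of other tissues were measured beside these. Of 19 fibroblast and epithelial genes 1 was at least 2-fold higher in each line, the keratin gene KRT8 in UKE1 (1.70 ± 0.09) and THY1 in HEL. Of 19 endothelial genes 3 were at least 2-fold higher in each line. KDR and FLT1, the receptors of vascular endothelial growth factor, were in HEL, at 10.18, 10.32 and 10.22 for KDR against 6.50, 6.46 and 6.61 in UKE1 (-3.72 ± 0.06) and with a difference of -3.20 ± 0.09 for FLT1. ERG and VWF, described above, were among the 3 of UKE1.

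Class II genes of the major histocompatibility complex, which show peptides to helper T cells, were higher in UKE1. Of 12 measured, 6 were at least 2-fold higher there (50%) and 0 in HEL. HLA-DRB5 was at 9.68, 9.65 and 9.55 in UKE1 and 4.35, 4.37 and 4.30 in HEL (5.29 ± 0.08), HLA-DQB1 followed (3.07 ± 0.20), and HLA-DPB1 was at 10.04, 10.10 and 10.00 against 8.03, 7.91 and 7.67 (2.18 ± 0.09). These genes vary in sequence between people and resemble each other, so the array's probes may read them unequally. HLA-DMB, which loads peptide onto class II proteins, was higher too (2.36 ± 0.09), and the class II regulator CIITA was higher by less than 2-fold (0.79 ± 0.07). HLA-DQA1 did not pass the threshold (-0.05 ± 0.10, adjusted p = 0.652 in limma). The class I side leaned the other way: of 15 genes 4 were at least 2-fold higher in HEL (26.7%) and 0 in UKE1. They were PSMB9 of the immunoproteasome (-2.05), the peptide transporters TAP1 (-1.46) and TAP2 (-1.15), and B2M, the shared light chain (12.35, 12.23 and 12.28 in HEL, 11.07, 11.16 and 11.06 in UKE1; -1.19 ± 0.07).

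Adhesion molecules of the cell surface were a further group with more members higher in UKE1. Of 42 measured, 14 were at least 2-fold higher in UKE1 (33.3%) and 4 in HEL. JAM3, a junction protein also found on stem cells and platelets, was at 10.40, 10.40 and 10.37 in UKE1 and 5.14, 5.36 and 5.33 in HEL (5.12 ± 0.08). CD93 (3.27), SIRPA (2.29), which binds the signal of CD47, and the hyaluronan receptor CD44 (1.66) were also higher in UKE1, and the T cell costimulator CD80 (-2.26) was higher in HEL. Integrins were even, with 6 of 25 at least 2-fold higher in each line, ITGA6, ITGAM and ITGAL (2.15) in UKE1 and ITGA2, ITGB3 and ITGA2B in HEL. Of 25 tetraspanins, membrane organisers, 10 were at least 2-fold higher in HEL (40%), led by TSPAN31 (-4.30 ± 0.08) and TSPAN7 (-3.64 ± 0.06), and 3 in UKE1, among them CD81 (1.51 ± 0.07).

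Of 33 chemokines and their receptors 8 were at least 2-fold higher in UKE1 (24.2%) and 4 in HEL. The homing receptor CXCR4 was at 8.41, 8.27 and 8.22 in HEL and 5.69, 5.73 and 5.63 in UKE1 (-2.61 ± 0.07), and CCR4 was higher in HEL as well (-3.06 ± 0.09). CXCR2 (2.57), CCR9 (2.52) and the chemokine gene CCL5 (2.99) were higher in UKE1. Of 42 secreted cytokines and growth factors 7 were at least 2-fold higher in UKE1 and 8 in HEL. IL1B was at 10.72, 10.53 and 10.56 in HEL and 7.33, 7.35 and 7.35 in UKE1 (-3.26 ± 0.08), and TNF (-1.64 ± 0.10), the EGF receptor ligand EREG (-2.70) and CSF1 (-2.05), the ligand of CSF1R, were also higher in HEL. TNFSF4 (OX40 ligand, 3.91) and SPP1 (osteopontin, 3.58) were higher in UKE1. For CSF1 and CSF1R, ligand and receptor thus read higher in different lines.

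Receptors for cytokines and growth factors numbered 74, of which 13 were at least 2-fold higher in UKE1 (17.6%) and 17 in HEL (23%). Besides CSF1R and FLT3, UKE1 had higher levels of IL3RA, the interleukin-3 receptor chain (7.83, 7.82 and 7.74 against 4.22, 4.12 and 4.18 in HEL; 3.62 ± 0.06), IL17RA (3.30), IL6R (3.14) and INSR, the insulin receptor (2.72). CSF3R, the granulocyte factor receptor that signals through JAK2, was at 7.11 ± 0.12 (SD, n = 3) in UKE1 and 4.79 ± 0.24 in HEL (2.32 ± 0.12 SE). Besides KDR, FLT1 and EPOR, HEL had higher levels of TNFRSF9 (4-1BB, -2.61), IL4R (-2.28) and IL6ST (gp130, -2.07). The 2 chains of the interleukin-6 receptor thus differed in opposite directions, IL6R higher in UKE1 and its signalling partner IL6ST higher in HEL.

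Of 35 JAK-STAT genes 10 were called higher in UKE1 and 14 higher in HEL, beside 33.3% and 34.4% of all genes. At 2-fold they were uneven, with 0 in UKE1 and 5 in HEL (14.3%), beside 7.34% and 8.29% of all genes. JAK2 itself, the gene that carries the mutation, was at 10.60, 10.66 and 10.63 in HEL and 8.60, 8.60 and 8.49 in UKE1 (-2.06 ± 0.07, adjusted p = 4.32e-12 in limma), a 4.18-fold difference. The array does not separate mutated from normal JAK2 RNA. The kinase genes PIM1 (11.53, 11.52 and 11.55 against 9.87, 9.80 and 9.76; -1.72 ± 0.06) and PIM2 (11.45, 11.49 and 11.51 against 8.66, 8.49 and 8.51; -2.93 ± 0.06) are targets of STAT5, and the feedback inhibitor SOCS3 (8.41, 8.49 and 8.51 against 6.36, 6.25 and 6.08; -2.24 ± 0.09) is a target of STAT3. HEL arrays lay above UKE1 arrays in all of these. STAT3 (-1.14 ± 0.06) was the fifth gene, and STAT5A was at 10.68, 10.70 and 10.75 in HEL against 10.03, 10.00 and 9.99 in UKE1 (-0.70 ± 0.06), below 2-fold. The largest difference in the other direction was in STAT6 (0.67 ± 0.08). PIM3, CISH, SOCS1 and SOCS2, also measured in this list, were not at least 2-fold different in either direction.

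Kinase pathways downstream of immune receptors leaned to UKE1, where 11 of 40 genes were at least 2-fold higher (27.5%) against 2 in HEL. Protein kinase C alpha (PRKCA) was at 8.68, 8.77 and 8.86 in UKE1 and 3.94, 3.79 and 3.60 in HEL (4.99 ± 0.08), with PRKCH beside it (4.61 ± 0.09). The focal adhesion kinase PTK2 was higher in HEL (-3.33 ± 0.08). Of 39 RAS-MAPK genes 4 were at least 2-fold higher in UKE1, led by the RAS activator RASGRP1 (3.35 ± 0.09), and 3 in HEL, led by the ERK target ETV5 (-2.36 ± 0.08). In the PI3K-AKT list 6 of 27 were at least 2-fold higher in UKE1 (22.2%), and the leading pair were negative regulators, the phosphatase INPP4B (5.93, 6.05 and 5.66 in HEL, 10.12, 10.18 and 10.12 in UKE1; 4.26 ± 0.10) and the mTOR inhibitor DEPTOR (3.44 ± 0.10). PIK3R3, a regulatory subunit of PI3K, was higher in HEL (-3.38 ± 0.06).

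**Figure D2:**
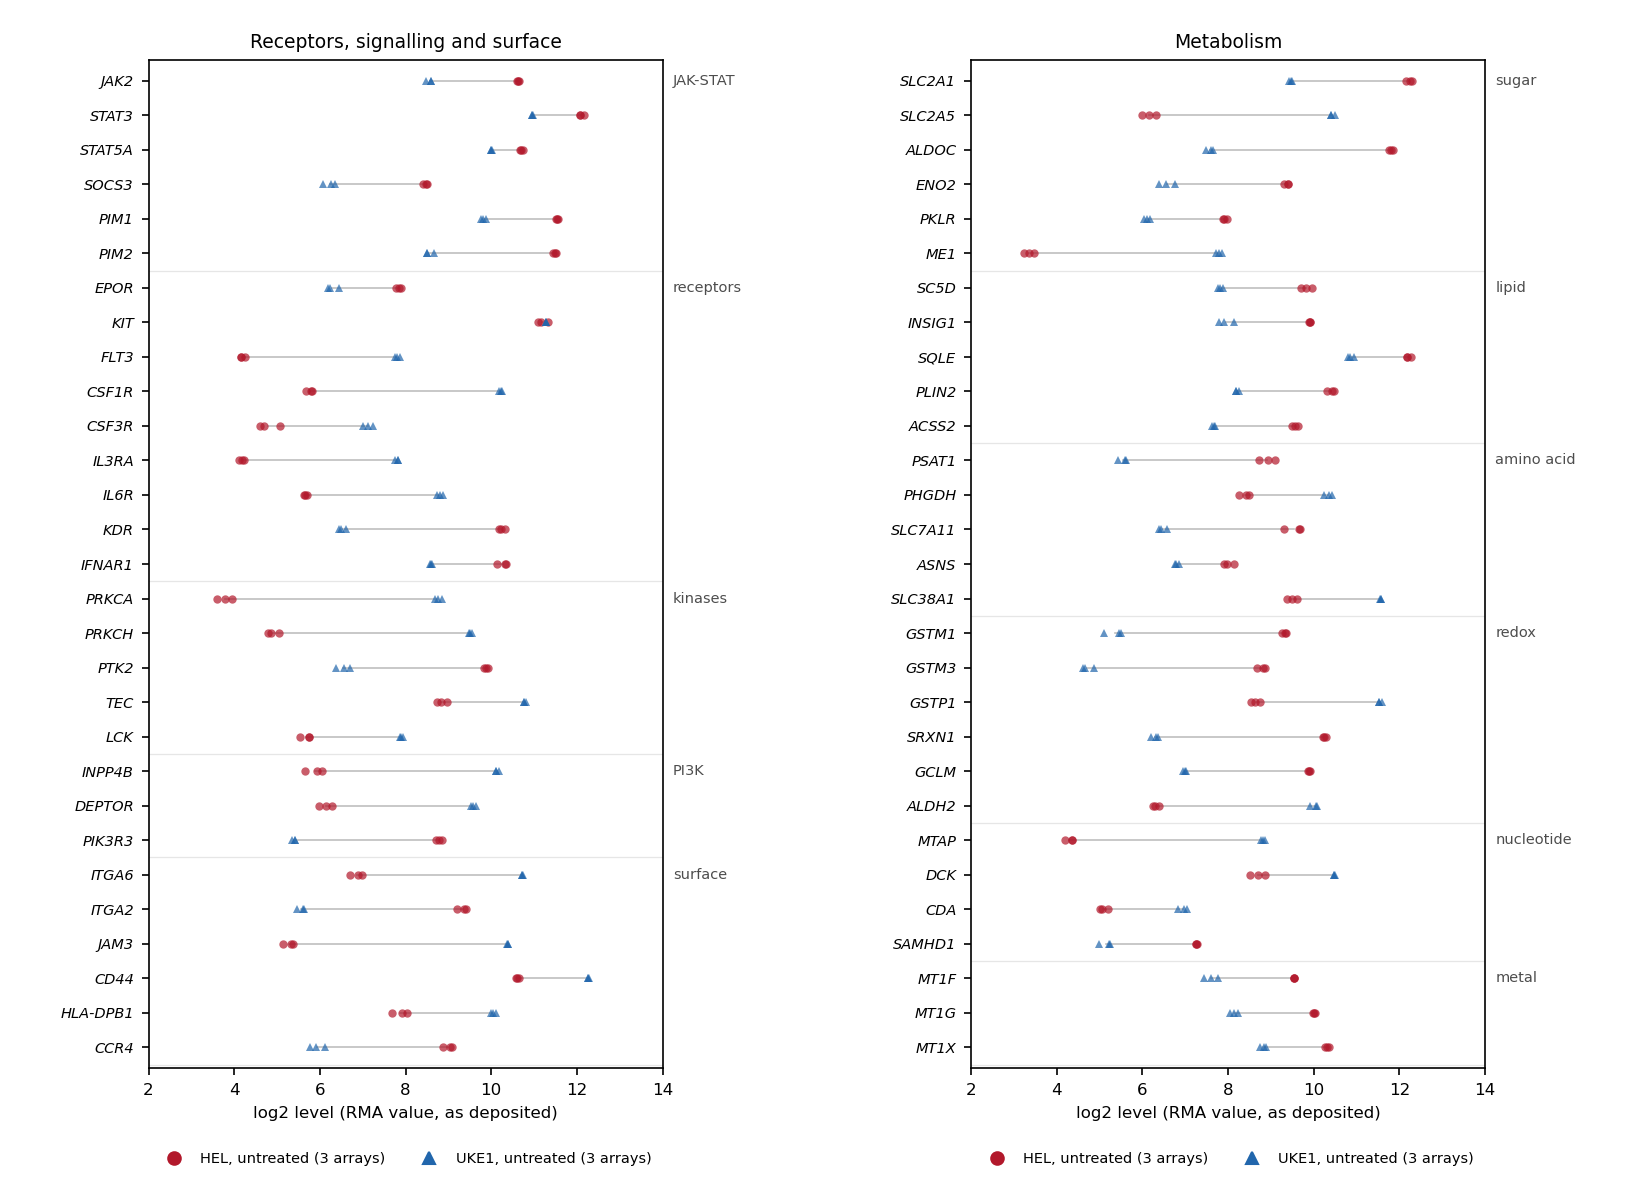
Log2 level (horizontal axis) of 29 receptor, signalling and surface genes (left) and 29 metabolic genes (right) on each of the 3 untreated HEL arrays (circles) and 3 untreated UKE1 arrays (triangles), with a grey line between group means. JAK2, PIM2 and SOCS3 lie to the right in HEL, PRKCA, INPP4B and JAM3 lie to the right in UKE1, and ALDOC and SLC2A5 show opposite differences of over 4 log2 units.

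Among 24 measured genes that are mutated in myeloproliferative neoplasms 4 were at least 2-fold higher in UKE1 (16.7%) and 2, JAK2 and NFE2, in HEL. The 4 were SETBP1 (3.43 ± 0.08), CSF3R, TET2, which oxidises methylated cytosine (7.75, 7.91 and 7.83 in HEL, 9.53, 9.41 and 9.55 in UKE1; 1.67 ± 0.08), and IKZF1 (1.63). The arrays report levels and hold no information on mutations. Histone deacetylases include the targets of ITF2357. Of 18 histone deacetylases and sirtuins, the latter not known as its targets, 8 were called higher in UKE1 and 7 higher in HEL. Over all genes these shares were 33.3% and 34.4%. At least 2-fold higher were 0 in UKE1 and 1, HDAC11 (-1.12 ± 0.10), in HEL.

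Of 30 proliferation genes 19 were called higher in UKE1 and 5 higher in HEL, 10 (33.3%) and 1 of them at least 2-fold. MCM5, part of the replicative helicase, was at 11.03, 10.99 and 10.97 in UKE1 and 9.53, 9.43 and 9.37 in HEL (1.55 ± 0.07), and GINS2 (2.03), CDC45 (1.56), TYMS (1.41) and PCNA (1.24) act at the same step or supply it. The mitotic checkpoint kinase BUB1 was the gene that was higher in HEL (-1.20 ± 0.06). MYC was higher in HEL, at 12.02, 12.01 and 12.03 against 11.54, 11.62 and 11.53 (-0.46 ± 0.06, adjusted p = 7.93e-06 in limma), less than 2-fold. Of 25 CDK inhibitor, G1 cyclin and RB genes 1 was at least 2-fold higher in each line, CCND1 in UKE1 (1.08) and CDKN2D in HEL (-1.44). CDKN2A did not pass the threshold and its arrays overlapped (6.21, 6.43 and 6.09 in HEL, 6.30, 6.02 and 6.09 in UKE1; adjusted p = 0.338 in limma).

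Survival genes of the BCL2 family differed in opposite directions. BCL2 was at 9.05, 9.03 and 8.93 in UKE1 and at 6.93 ± 0.14 (SD, n = 3) in HEL (2.07 ± 0.08 SE). BCL2L1 (BCL-xL), the survival factor of erythroid cells and platelets, was at 11.72, 11.61 and 11.66 in HEL and 10.01, 9.94 and 9.90 in UKE1 (-1.72 ± 0.07). In neither gene did the arrays of the lines overlap. Of 34 apoptosis genes 5 were at least 2-fold higher in UKE1, among them the death receptors TNFRSF10B (TRAIL-R2, 3.30 ± 0.10) and FAS (1.77 ± 0.08), and 2 in HEL. Of 25 p53 targets 5 were at least 2-fold higher in UKE1, with DDB2 (2.01), and 4 in HEL, with TP53INP1 (-2.31).

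Interferon-stimulated genes were split, 9 of 42 at least 2-fold higher in UKE1 (21.4%) and 4 in HEL (9.52%). MX2 was at 9.78, 9.77 and 9.70 in HEL and 5.88, 6.10 and 6.09 in UKE1 (-3.73 ± 0.07), and OAS2 was at 7.80, 7.65 and 7.74 in UKE1 and 4.90, 5.06 and 5.00 in HEL (2.74 ± 0.10). Both are antiviral effectors. IFNAR1, a chain of the type I interferon receptor, was lower in UKE1 (10.34, 10.32 and 10.13 in HEL against 8.57, 8.62 and 8.59; -1.67 ± 0.07).

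Hydrocortisone was in the medium of UKE1 alone, so glucocorticoid-responsive genes were described separately. Of 28 measured, 4 were called higher in UKE1 and 16 higher in HEL, 2 and 7 (25%) of them at least 2-fold. All genes tested had called shares of 33.3% and 34.4%. The receptor gene NR3C1 was at 8.67, 8.66 and 8.59 in UKE1 and 7.27, 7.35 and 7.31 in HEL (1.33 ± 0.06), and CD163 was the other gene at least 2-fold higher in UKE1 (1.40). TSC22D3 (GILZ), a direct target of the receptor, was at 8.44, 8.50 and 8.39 in HEL and 7.89, 7.84 and 7.94 in UKE1 (-0.56 ± 0.07). DDIT4 (-1.94 ± 0.17) and ANXA1 (annexin A1, -2.16 ± 0.09) were higher in HEL as well. On DDIT4 the UKE1 arrays were uneven, at 6.42, 6.35 and 5.70.

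Metallothioneins, small proteins that bind zinc and copper, were the list with the largest share of members at least 2-fold higher in HEL. Of 9 list genes, 7 were at least 2-fold higher in HEL (77.8%) and 0 in UKE1, 1 of the 7 being the metal-sensing factor MTF1 (-1.26). MT1X was at 10.30, 10.27 and 10.37 in HEL and 8.84, 8.89 and 8.75 in UKE1 (-1.49 ± 0.07), MT1F was at 9.53, 9.54 and 9.54 against 7.77, 7.59 and 7.43 (-1.94 ± 0.08), and MT2A was at 12.27, 12.34 and 12.33 against 11.29, 11.23 and 11.33 (-1.03 ± 0.06). The genes are near-identical copies, so their probes may not be independent, and MT1B and MT1H did not pass the threshold (-0.06 and 0.06). MT1X and MT2A are also in the glucocorticoid list. The 250 bases before the start of MT1X (chr16:56682220-56682469, plus strand, GRCh38.p14) and MT2A (chr16:56608334-56608583, plus strand) are shown because the genes differed together, and capitals mark the core of the metal response element (TGCACNC or TGCGCNC, on either strand).
MT1X: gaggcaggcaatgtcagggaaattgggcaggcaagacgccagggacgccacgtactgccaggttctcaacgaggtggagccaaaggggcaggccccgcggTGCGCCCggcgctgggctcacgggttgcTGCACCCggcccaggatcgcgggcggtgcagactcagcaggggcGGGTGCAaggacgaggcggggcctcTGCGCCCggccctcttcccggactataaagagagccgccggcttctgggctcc
MT2A: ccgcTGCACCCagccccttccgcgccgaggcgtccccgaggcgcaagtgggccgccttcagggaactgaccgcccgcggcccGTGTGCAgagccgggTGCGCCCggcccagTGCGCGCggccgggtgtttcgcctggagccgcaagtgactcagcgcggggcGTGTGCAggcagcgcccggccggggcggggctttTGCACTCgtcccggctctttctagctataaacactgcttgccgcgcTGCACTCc
MT1X held 4 core matches and MT2A held 7. At least 3 matches were found in 4 of 4 metallothionein genes with a promoter in the table, of 8 measured, and in 1.94% of all 27305 genes.

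Sugar metabolism differed in transporters and isoenzymes. Of 32 genes of glycolysis and lactate handling 7 were at least 2-fold higher in HEL (21.9%) and 2 in UKE1. The glucose transporter SLC2A1 (GLUT1), abundant in red cells, was at 12.29, 12.24 and 12.14 in HEL and 9.50, 9.48 and 9.42 in UKE1 (-2.76 ± 0.06), and the fructose transporter SLC2A5 (GLUT5) was at 10.49, 10.39 and 10.41 in UKE1 and 6.17, 6.32 and 5.98 in HEL (4.28 ± 0.08). The aldolase ALDOC (11.85, 11.81 and 11.76 against 7.65, 7.61 and 7.48; -4.23 ± 0.07), the enolase ENO2 (-2.80 ± 0.08) and PFKFB2 (-2.50 ± 0.09), which sets the glycolysis activator fructose 2,6-bisphosphate, were higher in HEL. Citrate cycle and pyruvate genes hardly differed at 2-fold, with 0 of 34 in UKE1 and 1 in HEL, the pyruvate carrier MPC2 (-1.19). Of 14 pentose phosphate and NADPH genes 1 passed, the malic enzyme ME1, at 7.78, 7.85 and 7.72 in UKE1 and 3.48, 3.37 and 3.25 in HEL (4.42 ± 0.07).

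Genes of lipid synthesis that differed were mostly higher in HEL. Of 22 genes of cholesterol synthesis and uptake 7 were at least 2-fold higher there (31.8%) and 1 in UKE1. SQLE, squalene epoxidase, was at 12.26, 12.17 and 12.19 in HEL and 10.93, 10.80 and 10.85 in UKE1 (-1.35 ± 0.06), the desaturase SC5D differed by -2.00 ± 0.08, and INSIG1, which senses sterols, by -1.96 ± 0.08. UKE1 medium held horse serum beside fetal calf serum, and its part in the result was not tested. Of 31 fatty acid genes 6 were at least 2-fold higher in HEL (19.4%) and 0 in UKE1, led by the lipid droplet protein PLIN2 (-2.19) and the acetate-activating enzyme ACSS2 (-1.91). Of 25 eicosanoid genes 3 were at least 2-fold higher in UKE1, led by the leukotriene receptor CYSLTR1 (4.50 ± 0.13), and 4 in HEL, led by HPGD (-2.50 ± 0.09), which inactivates prostaglandins.

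The first steps of serine synthesis differed in opposite directions. The first enzyme, PHGDH, was at 10.42, 10.35 and 10.25 in UKE1 and 8.49, 8.43 and 8.26 in HEL (1.95 ± 0.07), whereas the next, PSAT1, was at 9.11, 8.93 and 8.72 in HEL and 5.60, 5.61 and 5.42 in UKE1 (-3.38 ± 0.09). Of 40 amino acid and one-carbon genes 8 were at least 2-fold higher in HEL (20%) and 4 in UKE1. The cystine transporter SLC7A11 (-3.08 ± 0.10) and asparagine synthetase (ASNS, -1.20 ± 0.07) were in HEL, and the glutamine transporter SLC38A1 (2.08 ± 0.07) was in UKE1.

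Glutathione and redox genes were higher in HEL in 24 of 43 cases, 12 of them at least 2-fold (27.9%), against 5 at least 2-fold higher in UKE1. Glutathione transferase genes were spread over both lines. GSTM1 was at 9.37, 9.34 and 9.26 in HEL and 5.45, 5.11 and 5.50 in UKE1 (-3.97 ± 0.10), GSTM3 (-4.07 ± 0.09) and GSTT1 (-2.65 ± 0.14) ran with it, and GSTP1 was at 11.52, 11.52 and 11.60 in UKE1 and 8.53, 8.76 and 8.64 in HEL (2.90 ± 0.06). The GSTM genes resemble each other in sequence. SRXN1 (-3.95), which repairs peroxiredoxins, GCLM (-2.90), which takes part in glutathione synthesis, and the quinone reductase NQO1 (-1.91) were higher in HEL. The aldehyde dehydrogenase ALDH2 was higher in UKE1 (10.09, 10.06 and 9.91 against 6.25, 6.39 and 6.29; 3.71 ± 0.07).

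Of 35 genes of nucleotide metabolism 6 were at least 2-fold higher in UKE1 (17.1%) and 4 in HEL. MTAP, which recycles methylthioadenosine, was at 8.87, 8.82 and 8.77 in UKE1 and 4.19, 4.35 and 4.35 in HEL (4.52 ± 0.07), so that its HEL arrays lay near the 10th percentile of all values. Genes that handle nucleoside drugs differed as well: the activating kinase DCK (1.79 ± 0.08) and cytidine deaminase CDA (1.86 ± 0.11) were higher in UKE1, and SAMHD1, which breaks down deoxynucleotides, was higher in HEL (-2.12 ± 0.07). Of 20 ABC transporters 5 were at least 2-fold higher in UKE1 (25%) and 7 in HEL (35%). The lipid transporter genes ABCA6 (8.37, 8.33 and 8.23 in UKE1, 3.07, 3.12 and 2.90 in HEL; 5.28 ± 0.09) and ABCA9 (4.13 ± 0.10) led in UKE1. The drug and nucleotide pumps ABCC4 (-2.16 ± 0.07) and ABCB1 (P-glycoprotein, -2.01 ± 0.07) were higher in HEL.

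**Figure D3:**
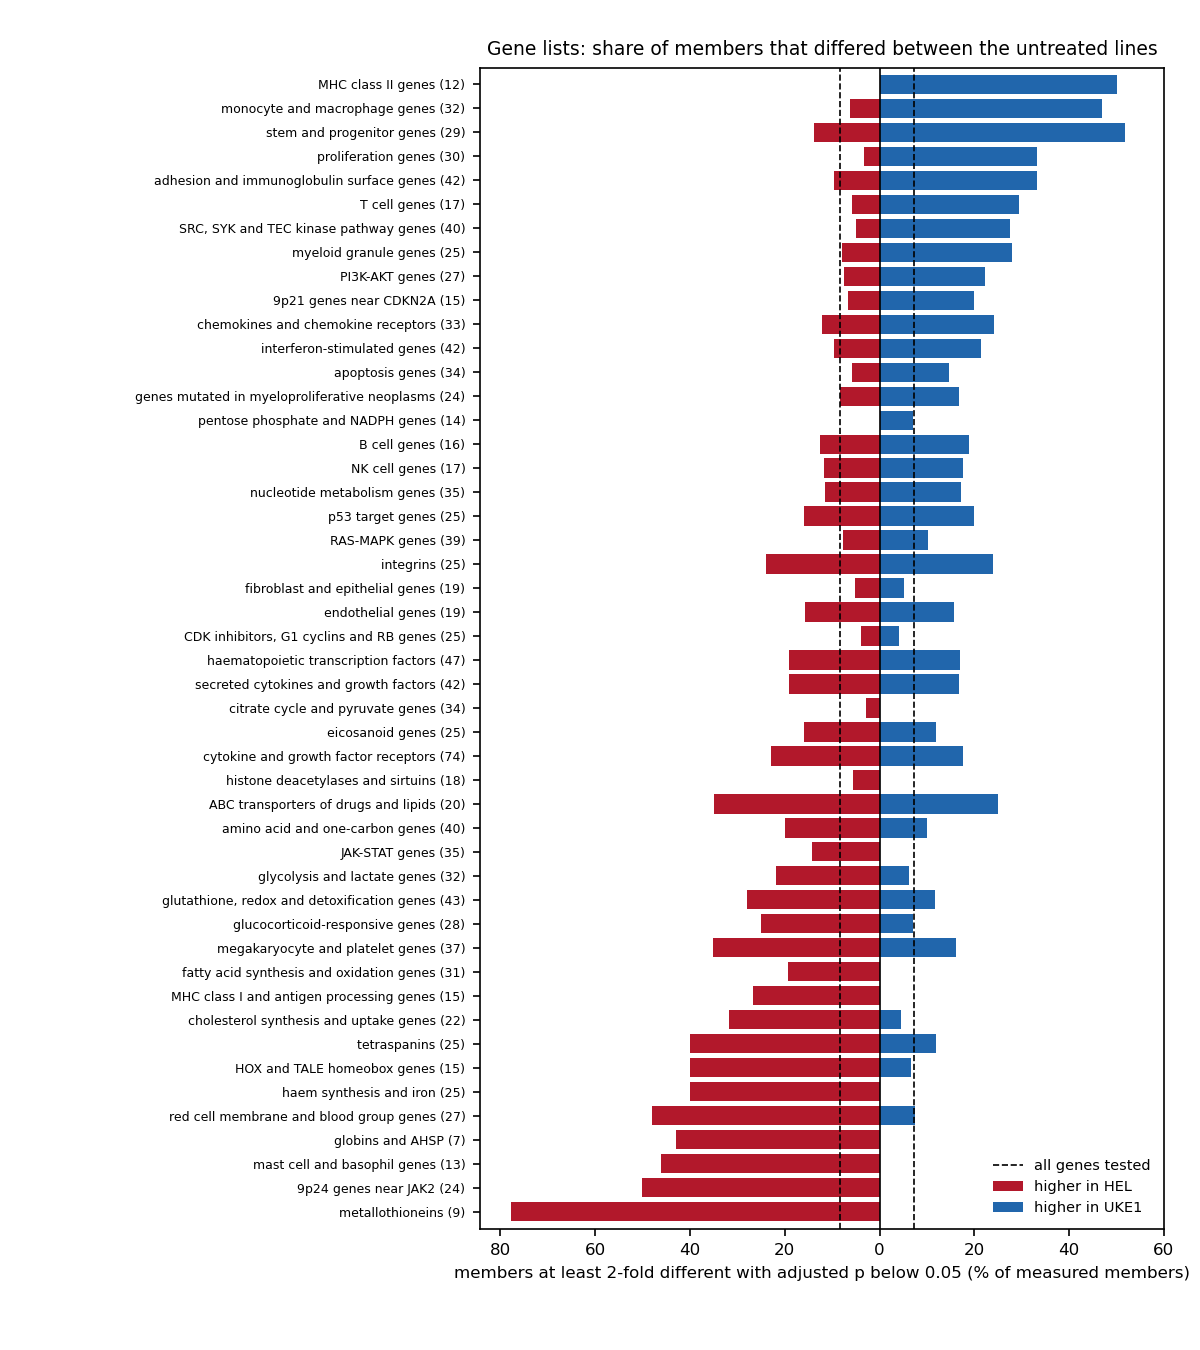
Share of measured members (horizontal axis, % of the number in parentheses) that were at least 2-fold higher in HEL (bars to the left) or in UKE1 (bars to the right) with an adjusted p below 0.05, for 48 gene lists. Dashed lines mark the shares over all genes tested, 8.29% and 7.34%, and metallothioneins (77.8%) and stem and progenitor genes (51.7%) have the longest bars on either side.

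Differences also ran together along chromosomes. Over genes at or above the median level the median difference was -0.04 (9195 genes), and per chromosome it was lowest on chromosome 21 (-0.87, with 14.4% of 104 genes higher in UKE1), followed by 20 (-0.35), 1 (-0.33) and 7 (-0.27). It was highest on chromosomes 14 (0.29), 22 (0.28) and 16 (0.22). Chromosome 21 kept the lowest median over all genes (-0.25) and after centring on the array medians (-0.82). The arrays measure RNA, and copy number was not measured.

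In windows of 25 neighbouring genes at or above the median level (8643 windows), the median difference lay between -0.50 at the 5th percentile and 0.39 at the 95th. The lowest window, at -1.86, ran from PUM3 to RRAGA on the short arm of chromosome 9 and contains JAK2. In it 23 of 25 genes were called higher in HEL, 14 of them at least 2-fold, and 1 was called higher in UKE1. PUM3 differed by -2.03 ± 0.07, RCL1 by -3.26 ± 0.06 (11.81, 11.85 and 11.89 in HEL, 8.65, 8.57 and 8.57 in UKE1), CD274 (PD-L1, an inhibitory ligand for T cells) by -2.88 ± 0.06 (9.57, 9.63 and 9.50 against 6.75, 6.60 and 6.72) and RRAGA by -2.32 ± 0.10. The difference of JAK2, at -2.06, lay near the median of its window. Over all 48 measured genes of the stretch 35 were higher in HEL and 2 in UKE1, and 21 (43.8%) were at least 2-fold higher in HEL. The median difference of all 48 was -0.77, smaller in size than the difference of JAK2.

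Other low windows that did not overlap this one ran from THY1 to SRPRA on chromosome 11 (-1.09), from ATP5PF to GART (-1.07) and VPS26C to TRAPPC10 (-0.99) on chromosome 21, and from EIF2S2 to SLA2 on chromosome 20 (-0.99), where 25 of 25 genes were called higher in HEL. On chromosome 21 the 8 measured genes from IFNAR2 to SON, which include the receptor genes IFNAR1, IFNGR2 and IL10RB, were all at least 2-fold higher in HEL (between -1.05 and -1.92). APP (6.99) and ERG (3.34), also on chromosome 21, went the other way. The highest windows ran from SCARB2 to AFF1 on chromosome 4 (0.81), PYCARD to CHD9 on chromosome 16 (0.76), SSBP2 to RIOK2 (0.70) and MIER3 to CDK7 (0.68) on chromosome 5, and MED12 to SYTL4 on chromosome X (0.67). With all genes used, the lowest window ran from EPCIP to CBR1 on chromosome 21 (-1.07) and the highest from CLEC4D to CLEC7A on chromosome 12 (2.09).

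**Figure D4:**
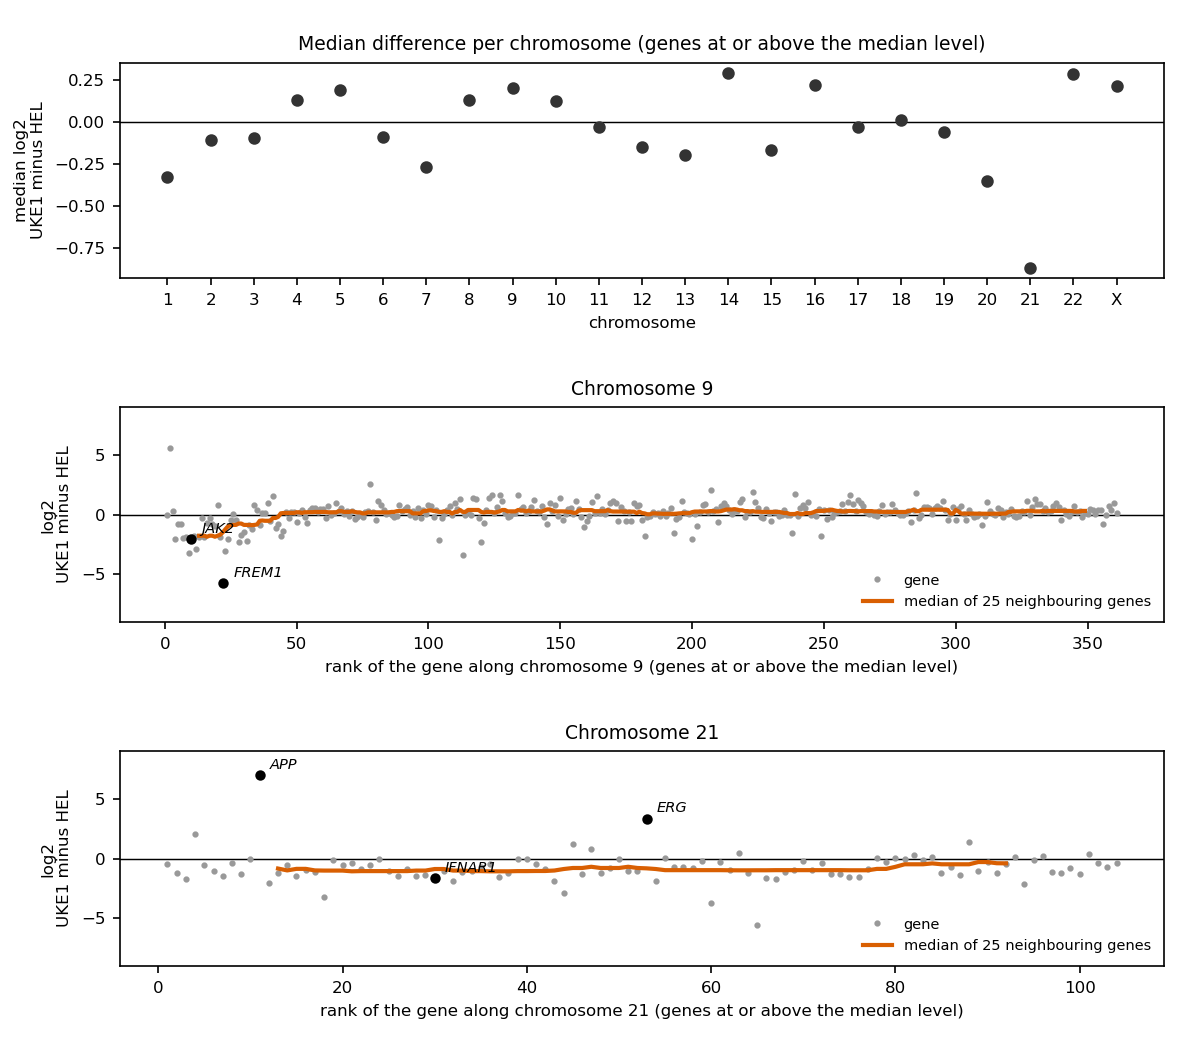
Top, median log2 difference (UKE1 minus HEL) of genes at or above the median level, per chromosome, with chromosome 21 lowest at -0.87. Below, the difference of each such gene on chromosomes 9 and 21 (points) by rank along the chromosome, with the running median of 25 neighbouring genes (line), which starts chromosome 9 near -1.86 around JAK2 and stays below 0 along most of chromosome 21.

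Some shorter stretches, chosen after their values were seen, held neighbouring genes that differed in the same direction. On chromosome 12, 13 of 13 measured genes from CLEC2D to CLEC7A, a cluster of lectin-like receptor genes, were called higher in UKE1, 11 of them at least 2-fold (84.6%), with a median of 3.34. CLEC9A, CLEC2A, CLEC1B and CLEC7A of the preceding paragraphs all lie there. On chromosome 17, 4 of 5 genes from ABCA8 to ABCA5 were at least 2-fold higher in UKE1, and on chromosome 6 the 3 vanin genes from VNN1 to VNN2 were (between 1.80 and 7.51). On chromosome 9, 3 of 20 measured genes from HACD4 to DMRTA1 were at least 2-fold higher in UKE1 and 0 in HEL. They were HACD4 (4.85 ± 0.10), KLHL9 (4.96, 5.24 and 5.04 in HEL, 9.15, 9.19 and 9.26 in UKE1; 4.12 ± 0.07) and MTAP, and CDKN2A lies next to MTAP.

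The imprinted region from MEG3 to DIO3 on chromosome 14 is a further stretch. It holds the long noncoding RNA MEG3 with rows of small nucleolar RNA and microRNA genes that are expressed from the maternal copy. Of 26 measured genes 22 were called higher in UKE1, 19 of them at least 2-fold (73.1%), and 0 in HEL. MEG3 was at 9.54, 9.31 and 9.48 in UKE1 and 5.96, 5.99 and 6.13 in HEL (3.41 ± 0.10). All 6 small nucleolar RNA genes (median 4.55) and 12 of 16 microRNA genes were at least 2-fold higher in UKE1, and the protein genes RTL1 and DIO3 of the region did not pass the threshold (-0.03 each).

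**Figure D5:**
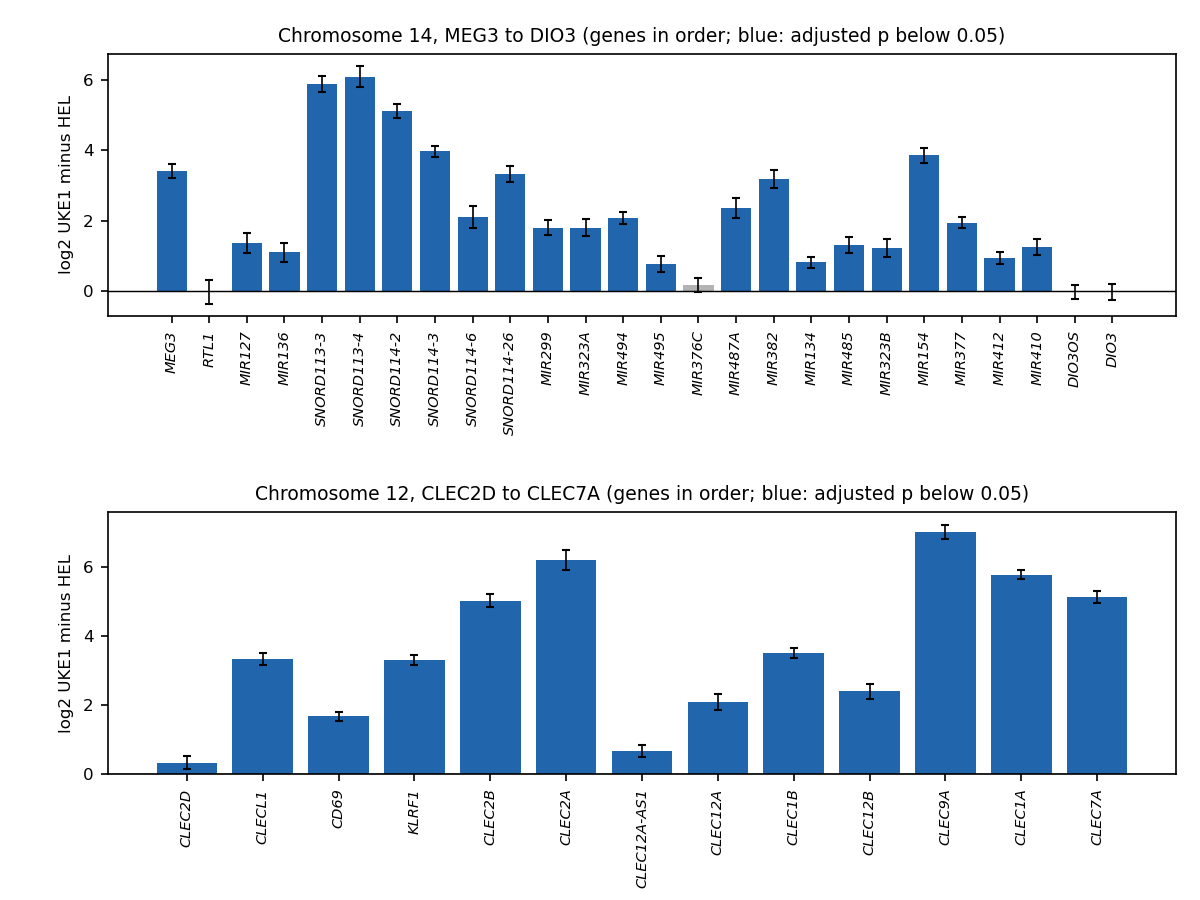
Log2 difference (UKE1 minus HEL, bars; error bars, 95% confidence interval of the limma fit) of the genes measured from MEG3 to DIO3 on chromosome 14 (top) and from CLEC2D to CLEC7A on chromosome 12 (bottom), in order along the chromosome. Of the 26 genes at the top 22 passed the threshold, with SNORD113-4 highest at 6.09, and all 13 at the bottom passed it.

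MicroRNA genes were read on the arrays as genes or hairpins, so the arms of a hairpin and the mature product cannot be told apart. Of 173 tested, 43 were called higher in UKE1 and 63 higher in HEL, where the shares over all genes were 33.3% and 34.4%. At least 2-fold different were 17 (9.83%) and 18 (10.4%), near the 7.34% and 8.29% of all genes. Of the 17 higher in UKE1, 12 lie on chromosome 14. A mature form each of 3 genes higher in HEL and of 3 higher in UKE1 is shown from RefSeq (GRCh38.p14), with the seed (bases 2 to 8), which pairs with target RNAs, in capitals. MIR146A, MIR144 and MIR223 are known in inflammatory, erythroid and myeloid cells, and MIR154, MIR382 and MIR487A belong to the chromosome 14 cluster. MIR101-2 (-3.25), next to RCL1 on chromosome 9, lay between MIR144 and MIR223 in size and is not shown.
hsa-miR-146a-5p: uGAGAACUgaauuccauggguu
hsa-miR-144-3p: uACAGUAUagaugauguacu
hsa-miR-223-3p: uGUCAGUUugucaaauacccca
hsa-miR-154-3p: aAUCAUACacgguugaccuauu
hsa-miR-487a-3p: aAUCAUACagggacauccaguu
hsa-miR-382-3p: aAUCAUUCacggacaacacuu
MIR146A was at 8.08, 7.76 and 7.73 in HEL and 3.63, 4.27 and 3.92 in UKE1 (-3.92 ± 0.13), MIR144 at 5.91, 5.92 and 5.82 against 2.25, 2.32 and 2.34 (-3.58 ± 0.12), and MIR223 at 10.22, 10.38 and 10.34 against 8.15, 8.09 and 7.89 (-2.27 ± 0.09). HEL was thus higher both in the microRNA gene of the erythroid lineage and in that of the myeloid lineage. MIR154 was at 6.47, 6.46 and 6.34 in UKE1 and 2.39, 2.54 and 2.76 in HEL (3.86 ± 0.10), MIR382 differed by 3.19 and MIR487A by 2.37. The 3′ arms of MIR154 and MIR487A share the seed AUCAUAC, and that of MIR382 has the seed AUCAUUC.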

How the data were processed

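The authors hybridised RNA of 12 cultures to Affymetrix Gene 1.0 ST arrays and, per the submitters' processing notes, used Affymetrix Expression Console with RMA (version: not given in the sources used here). On this basis, the log base of the values as the authors deposited them was read as log2 from their range (1.26 to 14.36). Of 33297 rows, 19460 had 1 gene symbol in the platform annotation, 1754 several and 12083 none, and the last 2 kinds were left out. The row with the highest mean over the 12 arrays was kept for 769 genes with more than 1 row, which left 18417 genes. Symbols and gene order came from RefSeq (GRCh38.p14).

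Group means of all 12 arrays were fitted with limma 3.58.1 in R 4.3.3 (8 residual degrees of freedom, two-sided, Benjamini-Hochberg). The script was tested on simulated data. Of 1360 genes in 48 lists, 1236 were measured. Members and lists were chosen with earlier results of these data known. The genes named were the 15 largest differences each way, list members led by up to 6 with the largest difference, a core list with 25 of 32 measured, and end genes and members of windows; genes of short stretches were named after their values were seen. The other core genes were not analysed here. Alternatives were other scalings, filters, row choices, priors and array sets.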

Additional observations from a re-analysis of the deposited data

Results flagged for a closer look

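The difference between the lines was compared in untreated and in ITF2357-treated arrays (interaction contrast in limma, 23.9% of all genes past the threshold). Of 25 core genes measured, 7 had a difference of another size in treated arrays, and in 3 of them it was larger there. The change in the difference was -0.67 for JAK2, 0.45 for KLF1, 0.57 for MYC, -0.74 for CD34, -0.45 for KIT, -0.70 for MTAP and -0.84 for HOXB7. JAK2 was thus further apart in treated cells (-2.73 against -2.06), and CD34 was closer (5.58 against 6.31). MYC and KIT, which differed little without drug, read 0.11 and -0.36 with it.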

How the results depend on the processing

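The 2878 genes that differed at least 2-fold were called in the same direction under each alternative in which they were tested, 1530 of them when genes below the median level were left out. That filter tested 9209 genes and so gave fewer calls by construction, 3422 higher in UKE1 and 3960 higher in HEL, with 689 and 841 at least 2-fold. Leaving out each untreated array in turn gave 5744 to 6030 and 5916 to 6185 calls, and 1329 to 1383 and 1508 to 1560 at 2-fold. The share of calls higher in UKE1 was 49.2%, and 53.2% and 53.8% with quantile normalization and median centring, which moved the median of all genes by 0.035 and 0.046. Replicate numbers were not used as pairs in the main fit. Deviations of same-numbered untreated HEL and UKE1 arrays correlated at 0.027, -0.014 and 0.122. Those of differently numbered arrays correlated at -0.111 to 0.087. Pairing of untreated with treated arrays was not checked. With the replicate number as a block 6116 genes were higher in UKE1 and 6336 in HEL, with 1351 and 1527 at 2-fold. Of 309 named genes, MYB and KIT gained and AHSP and EPCAM lost a call under some alternatives. Each list count was compared with its count under each alternative. In 1210 of these comparisons it stayed within 1.5 times the reported count, in 30 it was lower and in 8 higher. With all genes used, the medians of all chromosomes but 11 and 18 lay nearer 0. The number of arrays and signals near background limit what low genes can show.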
